A study of Mus musculus with 2 samples.

Results

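The cells described here were the natural killer (NK) cells among the CD45+ leukocytes sorted from mouse cochleae after noise exposure. They were 86 of 1285 barcodes that carried a single hashtag, out of 1556 barcodes in all, and held 733461 unique molecular identifiers (UMIs, each a counted RNA molecule). A barcode counted as an NK cell with at least 5 UMIs summed over Ncr1, Klre1, Gzma, Prf1 and Eomes and at most 2 UMIs of Cd3e, Cd3d and Cd3g. It also had to have fewer than 3 UMIs of the B cell gene Cd79a and under 300 UMIs of S100a8 and S100a9 per 10000, with at least 200 genes and at most 10% mitochondrial UMIs. The 4 groups were cochleae of sham-treated mice, called untreated in the design text, and cochleae taken 3, 7 and 14 days after noise. Each group was 1 pool from 6 mice, stained with its own hashtag antibody together with an antibody to CD45, and all 4 were sequenced in 1 droplet run. Strain, sex, age and noise level are not given in the sources used here, and the labels name no step that would remove blood or temporal bone marrow. With 1 pool per condition there was no replicate of any group, so no test was possible and every interval below covers counting error only.

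NK cells are cytotoxic lymphocytes without a rearranged antigen receptor. They read targets through germline-encoded receptors of the NKp46, NKG2 and Ly49 families. The activating receptors among these pass their signal through small adaptors such as DAP12. NK cells kill by releasing perforin and granzymes. They also secrete interferon gamma and chemokines that draw other leukocytes in. A related population, the type 1 innate lymphoid cells, shares many of these genes in the mouse but resides in tissue, kills less and carries Cxcr6 and the integrin gene Itga1, whereas Eomes marks NK cells in that species.

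The gate met a clear gap. Of 332 singlets low in Cd3, Cd79a and S100a8 plus S100a9, 240 had no UMI of the 5 NK genes and 6 had 1 UMI, which was the highest value outside the gate. No cell had 2 to 5 UMIs, the lowest members were 5 cells at 6 UMIs, and the members' median was 31 with a maximum of 249. A further 13 singlets with at least 5 NK gene UMIs were kept out by their Cd3 UMIs, 1 by Cd79a and 2 by S100a8 plus S100a9. Of the 5 members at 6 UMIs, 4 were day 7 cells, and none of these 4 had a UMI of Klre1 or Eomes. Genes of cytotoxic lymphocytes that the gate did not use were widespread in the members: Klrd1 (CD94, the partner of NKG2 receptors) was seen in 85 of the 86 cells and Nkg7 (a cytotoxic granule protein) in 86, against 37.1% and 60.8% of T cells and 1.62% and 2.43% of B cells. Neither gene separates NK cells from type 1 innate lymphoid cells, and the name NK cells is used here for all members of the gate. Ncr1, which encodes the activating receptor NKp46, was seen in 84 cells, Prf1 (perforin) in 75, Klre1 (a lectin-like receptor) in 68, Gzma (granzyme A) in 59 and Eomes (a T-box transcription factor) in 57.

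Defining genes of most other cell types were at or near 0 in the 86 cells. Of 17 T cell genes 8 had no UMI, among them Cd4, Cd8a, Cd5 and Cd163l1, and Trac (T cell receptor alpha constant region) had 10 UMIs. Cd3e was another of the 8, but the gate itself limits the Cd3 genes. Of the 86 members 10 had 1 or 2 Cd3 UMIs. Trbc1 had 417 UMIs, Trbc2 165 and Trdc 109. Among 14 genes of type 2 and 3 innate lymphoid cells 11 had no UMI, including Il1rl1 and Il23r. Of 15 monocyte, macrophage and dendritic cell genes 9 had none, including C1qa, Adgre1 and Siglech, although Ly6c2, which NK cells also express, had 132. S100a8 reached 509 CPM (UMIs of a gene per 1000000 UMIs of the cells summed) and S100a9 615 CPM in NK cells, against 584 and 626 CPM in T cells and 460 and 598 CPM in B cells, so these neutrophil genes were at a like level in every lymphocyte class. Summed over 12 neutrophil genes, NK cells held 1616 CPM in sham, 1350 CPM at day 3, 1362 CPM at day 7 and 989 CPM at day 14.

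No difference in the NK share between pools was detectable. NK cells were 24 of 341 sham singlets (7.04%, exact Clopper-Pearson 95% interval 4.56 to 10.3%), 35 of 551 at day 3 (6.35%, 4.46 to 8.72%), 17 of 216 at day 7 (7.87%, 4.65 to 12.3%) and 10 of 177 at day 14 (5.65%, 2.74 to 10.1%). The ratio to sham was 0.903 at day 3 (0.522 to 1.59), 1.12 at day 7 (0.564 to 2.17) and 0.803 at day 14 (0.343 to 1.74). Every interval included 1, at a depth of 10 to 35 NK cells a pool. Against singlets other than neutrophils, the shares were 9.16% in sham, 11.9% at day 3, 12.2% at day 7 and 9.52% at day 14. The median NK cell held 5949 UMIs in sham, 6798 at day 3, 7275 at day 7 and 8281 at day 14. The largest cell of each pool held 10.1% of that pool's NK UMIs in sham, 14.9% at day 3, 11.4% at day 7 and 28.4% at day 14.

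**Figure D1:**
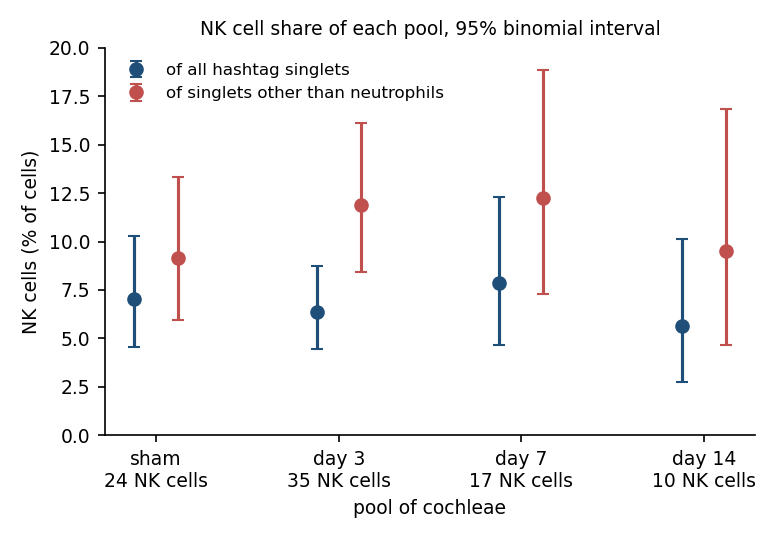
NK cells as a percentage of all hashtag singlets (blue) and of singlets other than neutrophils (red) in each of the 4 pools, with exact 95% binomial intervals that cover counting error only. The 4 blue points lie between 5.65% and 7.87% and their intervals overlap.

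Setting the NK cells beside the 97 T cells of the same pools (singlets with at least 3 Cd3 UMIs) described which genes, beyond the gate, went with NK identity. Both sets were chosen by measured genes, so the contrast is a description. Of 6905 genes with at least 20 UMIs in both sets together, 296 (4.29%) were at least 2-fold higher and 219 (3.17%) at least 2-fold lower in NK cells, with a 95% Poisson interval excluding 1 and the same direction in all 4 pools. Klra3, a Ly49 receptor for MHC class I, was at 474 CPM in NK cells and 43.1 CPM in T cells (ratio 11.02, 7.77 to 16.1). The NK1.1 gene Klrb1c had 179 CPM in NK cells against 14.8 CPM in T cells (12.1, 6.70 to 24.0), and the adaptor DAP12 gene Tyrobp 1614 CPM against 305 CPM (5.29, 4.61 to 6.09). The transcription factor gene Irf8 had 419 CPM in NK cells against 36.9 CPM in T cells (11.3, 7.78 to 17.1). Nrgn, which encodes the calmodulin-binding protein neurogranin, led this set with 151 CPM in NK cells against 6.15 CPM in T cells (24.6, 10.2 to 77.3). The mast cell chymase gene Cma1 had 59 UMIs in NK cells and none in T cells, a level at least 21.8-fold higher when the empty side is set to 3 UMIs. Ly49 genes are near-identical copies, so the split of reads among Klra3, Klra9, Klra7 and Klra4 is uncertain.

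On the other side, NK cells were lowest against T cells in Tcrg-C1, Il1b, Trac, Cd163l1, S1pr1 and Cd8b1. The sphingosine receptor gene S1pr1, which guides lymphocyte exit from tissue, had 2 UMIs in NK cells and 122 in T cells (ratio 0.0182, 0.00218 to 0.0671). The interleukin 7 receptor gene Il7r had 36.8 CPM in NK cells against 445 CPM in T cells (0.0827, 0.0537 to 0.122). Of 15 measured activating receptor genes 9 were higher in NK cells and none lower, and of 14 measured T cell genes 12 were lower, as the gate on Cd3 and the NK genes favours. Of 13 type 1 innate lymphoid genes 6 were lower in NK cells than in T cells and none higher.

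**Figure D2:**
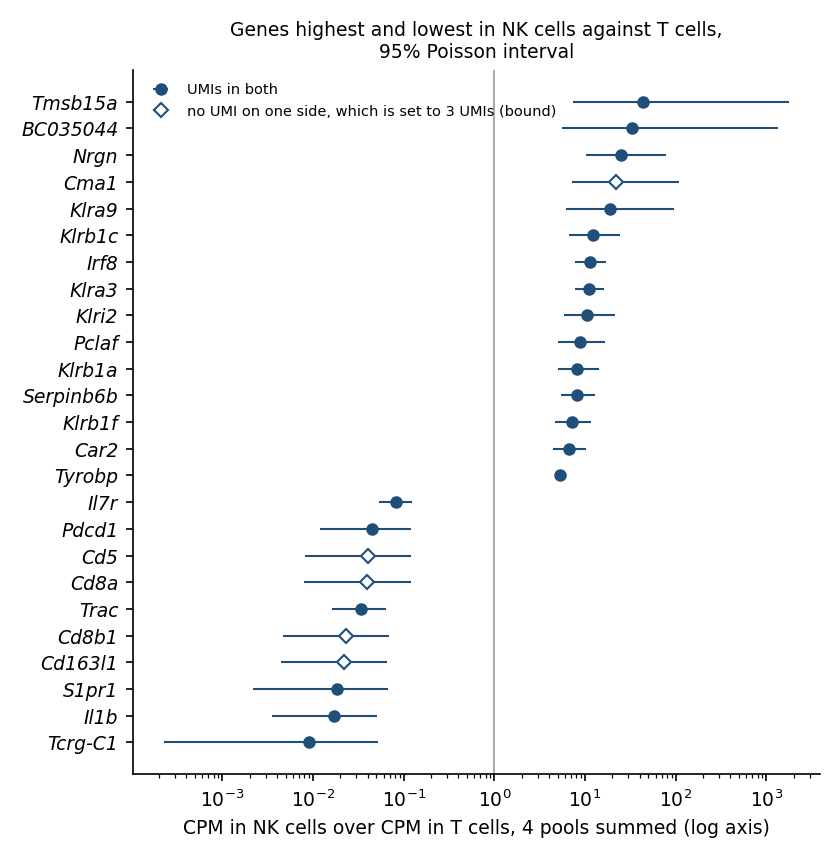
Ratio of CPM in NK cells to CPM in T cells, 4 pools summed, on a log axis, with exact 95% Poisson intervals. Shown are the 15 genes highest and the 10 lowest by the interval bound nearest to 1; open diamonds are bounds where 1 side had no UMI.

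Across the pools, Ncr1, Klrd1, Fcer1g and Il2rb stayed within 1.5-fold of sham, while Gzma and Prf1 spread further. Ncr1 had 1414 CPM in sham, 1057 CPM at day 3, 1153 CPM at day 7 and 1034 CPM at day 14. Klrd1 had 1365, 1162, 928 and 1079 CPM in the same order, and Fcer1g, the Fc receptor gamma chain that carries the NKp46 signal, had 1114, 1009, 1083 and 1124 CPM. Fcer1g was seen in all 86 cells, and its ratio to sham stayed between 0.906 and 1.01. The interleukin 2 and 15 receptor chain gene Il2rb had 643 CPM in sham, 771 CPM at day 3, 750.5 CPM at day 7 and 652 CPM at day 14. These genes do not stand for all receptors and adaptors. By the 1.5-fold rule given below, 4 of 12 measured activating receptor genes were lower than sham at day 14. So were 3 of 9 measured adaptor and kinase genes, and none of either list was higher. Of all measured genes 8.99% were lower. Gzma had 5716 CPM in sham, 4178 CPM at day 3, 2646 CPM at day 7 and 727 CPM at day 14, and per cell its median was 21.5, 20, 3 and 0 UMIs. Prf1 had 685 CPM in sham, 560 CPM at day 3, 301.7 CPM at day 7 and 150 CPM at day 14. Ncr1, Gzma and Prf1 are gate genes, so their levels are given as a description. A gate without Gzma, on the other 4 genes with a sum of at least 3 UMIs, gave the same number of cells in each pool.

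**Figure D3:**
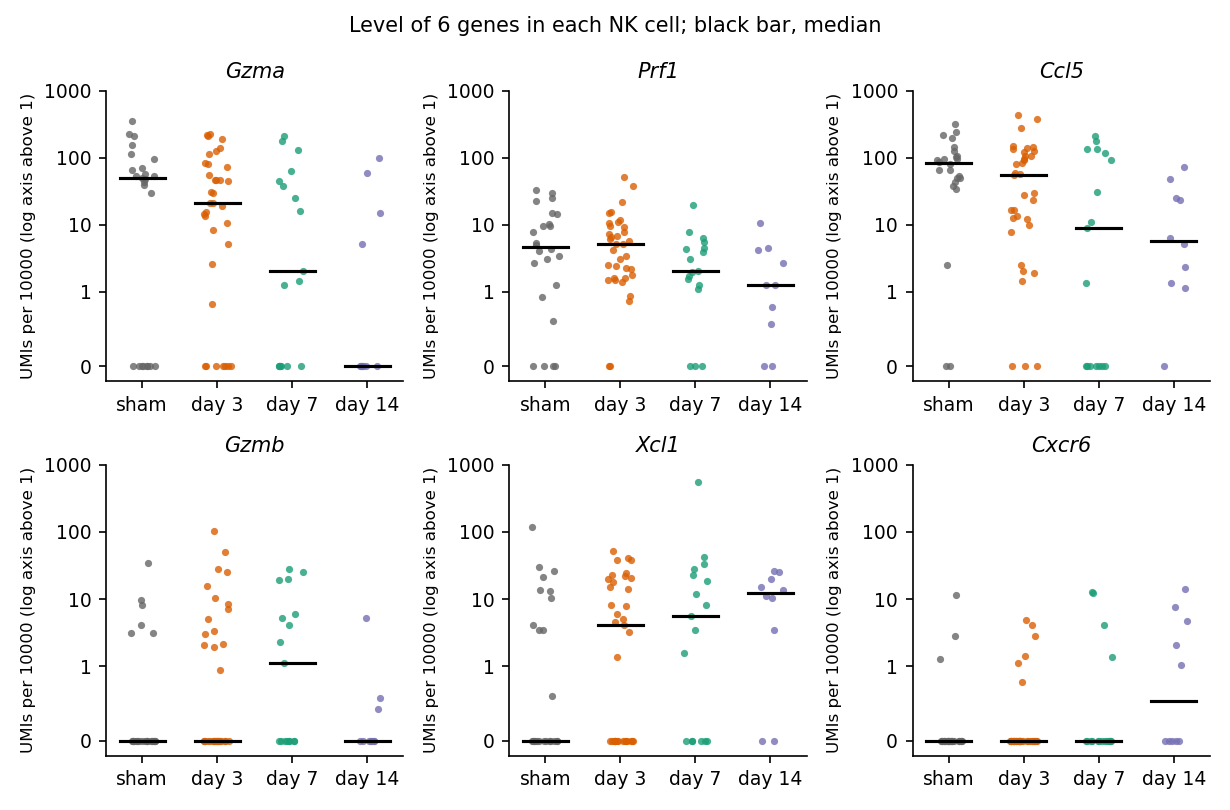
UMIs per 10000 of Gzma, Prf1, Ccl5, Gzmb, Xcl1 and Cxcr6 in each of the 86 NK cells by pool, on an axis that is logarithmic above 1, with black bars at the medians. Gzma and Ccl5 medians are lower in each later pool, Xcl1 medians are higher, and a single day 7 cell lies far above the rest in Xcl1.

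At day 3, NK cells held more Gzmb and more of several interferon-response genes than in sham, while few other granule genes passed the threshold. A gene counted as higher or lower with a ratio of at least 1.5 either way and an interval excluding 1. Of 3389 genes measured with at least 20 UMIs in both pools, 120 (3.54%) were higher and 99 (2.92%) lower, against which the counts of each list are read. Without the cell richest in each gene in both pools, 4.10% of measured genes were higher and 2.10% lower. Gzmb (granzyme B, the caspase-cleaving granzyme) had 212 UMIs in 15 of 35 cells at day 3 against 34 UMIs in 6 of 24 sham cells. That was 690 CPM against 208 CPM, a ratio of 3.31 (2.30 to 4.91), and 5.35 without the cell richest in Gzmb of each pool. The second ratio is larger because the richest sham cell held 58.8% of the sham Gzmb UMIs. A pair of day 3 cells held 69 and 64 of the 212 UMIs, and the median cell had 0 Gzmb UMIs in both pools. The rise in the sum thus rested largely on that pair. After every cell was thinned to 2000 UMIs, Gzmb was seen in 28.6% of day 3 cells against 16.7% of sham cells, and in 0.272% of B cells and 0 of 467 neutrophils. Of the 14 measured genes for granzymes and granule release, Gzmb alone was higher, and Serpinb9, the inhibitor that shields the killer cell from granzyme B, was lower with 312 CPM against 496 CPM (0.630, 0.464 to 0.858; 0.741 without the richest cells, past the threshold no longer).

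Of the 11 measured type I interferon response genes 3 were higher at day 3 and none lower, with a median log2 ratio of 0.93 against 0.00 over all measured genes. Isg15, a ubiquitin-like protein, had 120 CPM at day 3 against 36.7 CPM in sham (3.28, 1.37 to 9.50), and Trim30a had 114 CPM against 49.0 CPM (2.33, 1.06 to 5.80). Ifi44 had 30 UMIs at day 3 against 1 UMI in sham (15.9, 2.65 to 651), with 56.7% of the day 3 UMIs in 1 cell. The glucocorticoid-induced gene Tsc22d3 (GILZ) had 296 CPM at day 3 against 116 CPM in sham (2.55, 1.54 to 4.42), although the list it belongs to had 1 gene higher and 1 lower of 9 measured. Of 25 measured immediate early genes the orphan nuclear receptors Nr4a2 and Nr4a3 and the factor Klf6 were higher and Myc was lower. Nr4a2 had 472 CPM at day 3 against 263 CPM in sham (1.79, 1.27 to 2.58). Interferon gamma, Ifng, had 459 CPM at day 3 against 306 CPM in sham with a ratio of 1.499, just under the threshold (1.08 to 2.11), and 1.90 without the richest cells.

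Genes lower at day 3 included surface receptors, and 2 of 15 measured activating receptor genes were lower, with none higher. That balance rested on 1 cell, since without the largest cell of each pool 2 of 15 were higher and none lower. Cd7 had 407 CPM at day 3 against 636 CPM in sham (0.639, 0.489 to 0.837), and the adhesion molecule gene Cd2 had 267 CPM against 410 CPM (0.651, 0.465 to 0.912). Zeb2, a factor of terminal NK maturation in the mouse, had 127 CPM at day 3 against 220 CPM in sham (0.576, 0.357 to 0.932). Without the largest cell of each pool the ratio was 0.757 for Cd7 (0.570 to 1.01) and 0.681 for Cd2 (0.479 to 0.972), both short of the threshold, and without the richest cells Cd2 and Zeb2 fell short of it. Socs2, a feedback inhibitor of cytokine signalling, had 5 UMIs at day 3 against 29 UMIs in sham, with 93.1% of the sham UMIs in 1 cell. Ly6c2, a surface gene of late NK maturation in the mouse and of monocytes, was higher with 211 CPM at day 3 against 104 CPM in sham (2.03, 1.18 to 3.70). The redox regulator gene Txnip was lower at all 3 times, with 483 CPM in sham, 319 CPM at day 3, 162 CPM at day 7 and 202 CPM at day 14, though its day 3 ratio was 0.733 (0.533 to 1.01) without the largest cells. The increases with intervals farthest above 1 belonged to Hist1h2ap, Pclaf and Hist1h1b, genes of DNA replication and chromatin, and 8 of 18 measured cell cycle genes were higher. These rested on 1 cell of 45662 UMIs, which held 95.7% of the day 3 UMIs of 10 mitosis genes, and without the richest cells 1 of 10 measured cell cycle genes was higher.

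At day 7, NK cells held less of Ccl5 and of the immediate early genes, and more Gzmb and Xcl1. Higher Itga1 and Cxcr6 depended on the 4 cells at the lower edge of the gate. Of 2257 measured genes 93 (4.12%) were higher and 100 (4.43%) lower, and without the richest cells 2.96% were higher and 5.81% lower. Ccl5 (RANTES, a chemokine stored by cytotoxic lymphocytes) had 3427 CPM at day 7 against 7785 CPM in sham, a ratio of 0.440 (0.394 to 0.491), and was seen in 10 of 17 cells against 22 of 24. Gzma had a ratio of 0.463 (0.408 to 0.524) and Prf1 of 0.440 (0.298 to 0.639), given as a description because the gate used both. Gzmb went the other way, with 658 CPM at day 7 against 208 CPM in sham (3.16, 2.10 to 4.85), in 9 of 17 cells against 6 of 24. Serglycin, the granule proteoglycan encoded by Srgn, was higher with 1369 CPM against 759 CPM (1.80, 1.43 to 2.29), and at 1.40 without the richest cells. The lists of granule genes (2 higher and 2 lower of 11 measured) and of cytokines and chemokines (3 and 3 of 8) thus moved in both directions.

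The chemokine increases at day 7 rested largely on 1 cell. Xcl1, the ligand of the dendritic cell receptor Xcr1, had 728 UMIs at day 7 against 134 UMIs in sham (6.87, 5.70 to 8.32), with 77.6% in a cell of 565 Xcl1 UMIs, and its ratio was 2.05 without the richest cell of each pool. That cell also held all 130 day 7 UMIs of Ccl1, a gene with no UMI in sham, and 377 of Ccl4. Ccl4 (MIP-1 beta) was 3.95-fold higher at day 7 with that cell (3.23 to 4.85) and lower without the richest cells, at a ratio of 0.436. Ifi27l2a, an interferon-induced gene, had 73 UMIs in 3 cells at day 7 against 3 UMIs in 2 sham cells (30.8, 10.1 to 153). Those 3 cells were all at the lowest gate sum of 6 UMIs, and the 13 day 7 cells above that sum had no Ifi27l2a UMI. Ccl3 (MIP-1 alpha) had 456 CPM at day 7 against 226 CPM in sham (2.02, 1.31 to 3.13), with 57.6% of the day 7 UMIs in 1 cell and no call without the richest cells. Summed over 15 genes of monocytes, macrophages and dendritic cells, which include Ly6c2, NK cells held 426 CPM at day 7 against 202 CPM in sham, and Ly6c2 alone 317 CPM against 104 CPM (3.05, 1.69 to 5.72). The 4 cells at the lowest gate sum held 26 of the 41 day 7 Ly6c2 UMIs, and with a sum of at least 8 its ratio was 1.41 (0.654 to 2.99).

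Of 24 measured immediate early genes 9 were lower at day 7 and 3 higher, with a median log2 ratio of -0.57 against -0.01 over all measured genes. Without the richest cells 8 of 20 were lower and none higher. Jun had 5 UMIs at day 7 against 76 UMIs in sham (0.0832, 0.0263 to 0.203), Fos 193 CPM against 612 CPM (0.316, 0.195 to 0.494) and Zfp36, an mRNA decay factor, 85.1 CPM against 343 CPM (0.248, 0.117 to 0.479). Klf2, which keeps S1pr1 transcribed in lymphocytes, had 201 CPM at day 7 against 783 CPM in sham (0.257, 0.162 to 0.394). Among chemokine and sphingosine receptor genes, Cxcr4 and Ccr2 were lower at day 7 and Cxcr6 and Gpr183 were higher. Of 9 measured type 1 innate lymphoid genes 4 were higher and none lower, with a median log2 ratio of 0.92. Itga1 had 201 CPM at day 7 against 55.1 CPM in sham (3.65, 1.66 to 8.86) and the phosphatase gene Inpp4b 232 CPM against 67.3 CPM (3.45, 1.68 to 7.62). Cxcr6 had 224 CPM at day 7 against 85.7 CPM in sham (2.62, 1.34 to 5.36), with 22 of its 29 day 7 UMIs in 2 of the 4 cells at the lowest gate sum. With a gate sum of at least 8 the direction of Cxcr6 turned, at a ratio of 0.797 (0.272 to 2.11), and Itga1 was at 2.48 (0.9996 to 6.49). Itga2 was lower at day 7, with 8 UMIs against 26 UMIs in sham (0.389, 0.152 to 0.885), and at 0.490 (0.192 to 1.12) with a gate sum of at least 8. The serum and glucocorticoid kinase gene Sgk1 had 4 UMIs at day 7 against 38 UMIs in sham (0.133, 0.0345 to 0.370).

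At day 14 the pool held 10 NK cells, and the levels of Ccl5, Gzmb and Serpinb9 were the lowest of the 4 pools. Of 2259 measured genes 157 (6.95%) were higher and 203 (8.99%) lower, and without the richest cells 4.39% were higher and 10.2% lower. Ccl5 was at a ratio of 0.145 to sham (0.122 to 0.172) with 1131 CPM against 7785 CPM. The gate gene Gzma, given as a description, was at 0.127 (0.102 to 0.157) with 97 UMIs in 4 of 10 cells. Serpinb9 had 59.9 CPM at day 14 against 496 CPM in sham (0.121, 0.0505 to 0.250), Ccl4 172 CPM against 796 CPM (0.217, 0.133 to 0.339) and Gzmb 30.0 CPM against 208 CPM (0.144, 0.0371 to 0.404). Among 11 measured granule genes 5 were lower and none higher. Among 9 cytokine and chemokine genes 5 were lower and none higher, with a median log2 ratio of -1.13 against -0.03 over all measured genes. Tyrobp had 1041 CPM at day 14 against 2099 CPM in sham (0.496, 0.404 to 0.606), while Fcer1g was at 1.01 (0.807 to 1.26). Of 12 measured activating receptor genes 4 were lower and none higher, among them Klrk1 (NKG2D) with 352 CPM at day 14 against 581 CPM in sham (0.606, 0.418 to 0.868) and Slamf6 with 1 UMI against 19 UMIs (0.0644, 0.00155 to 0.405). Without the largest cell of each pool 2 of 10 were lower, and Klrk1 was at 0.777 (0.533 to 1.12). Klrc1, which encodes the inhibitory receptor NKG2A, had 112 CPM at day 14 against 330.5 CPM in sham (0.340, 0.178 to 0.611), and reads may be split with its near copy Klrc2. Among adhesion genes Itga2, Itga4, Itgb1 and Selplg were lower, and of 8 cytokine receptor genes both chains of the interleukin 18 receptor, Il18r1 and Il18rap. The largest day 14 cell bore on these too: without the largest cells Itga4 was at 0.607 (0.325 to 1.09), Itgb1 at 0.749 (0.537 to 1.03), Selplg at 0.671 (0.486 to 0.918) and Il18r1 at 0.686 (0.410 to 1.12), all short of the threshold. Of 14 measured NK transcription factor genes 5 were lower and none higher. They included Tcf7, a factor of early NK cells, with 2 UMIs at day 14 against 24 UMIs in sham (0.102, 0.0117 to 0.411), and Id2, required for NK cells in the mouse, with 614 CPM against 1261 CPM (0.487, 0.373 to 0.632).

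Of the 9 measured type 1 innate lymphoid genes 4 were higher at day 14 and Ltb was lower, with a median log2 ratio of 1.21. Cxcr6 had 225 CPM at day 14 against 85.7 CPM in sham (2.62, 1.35 to 5.35) and was seen in 5 of 10 cells against 3 of 24. Tmem176a had 210 CPM at day 14 against 67.3 CPM in sham (3.12, 1.504 to 6.94). Per cell, the median of Xcl1 was 12.5 UMIs at day 14, against 0 in sham, 2 at day 3 and 6 at day 7, and its ratio in summed CPM at day 14 was 1.47 (1.16 to 1.86), or 1.51 without the richest cells.

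A pair of large cells carried many of the UMIs of genes higher at day 14. A cell of 37870 UMIs held 53 of the 54 Mpo UMIs and 65 of the 68 Plac8 UMIs of that pool, with 11 UMIs of Cd34 and 22 of Ighm, genes of progenitors and B lineage cells, beside 10 Ncr1 UMIs. Over 12 mast cell, basophil and progenitor genes the NK cells of the pools summed to 12.2 CPM in sham, 35.8 CPM at day 3, 7.74 CPM at day 7 and 554 CPM at day 14. It also held 87.9% of the day 14 Fos UMIs, so that Fos was 1.71-fold higher with it (1.32 to 2.24) and at a ratio of 0.311 without the richest cells. A cell of 23838 UMIs held 23 Mki67 and 46 Top2a UMIs, and 12 of 20 measured cell cycle genes were higher at day 14, against 3 of 8 without the richest cells. Whether the first is 2 cells in 1 droplet was not tested. Cells with at least 5 UMIs of the 10 mitosis genes numbered 2 of 24 in sham, 1 of 35 at day 3, 2 of 17 at day 7 and 2 of 10 at day 14.

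**Figure D4:**
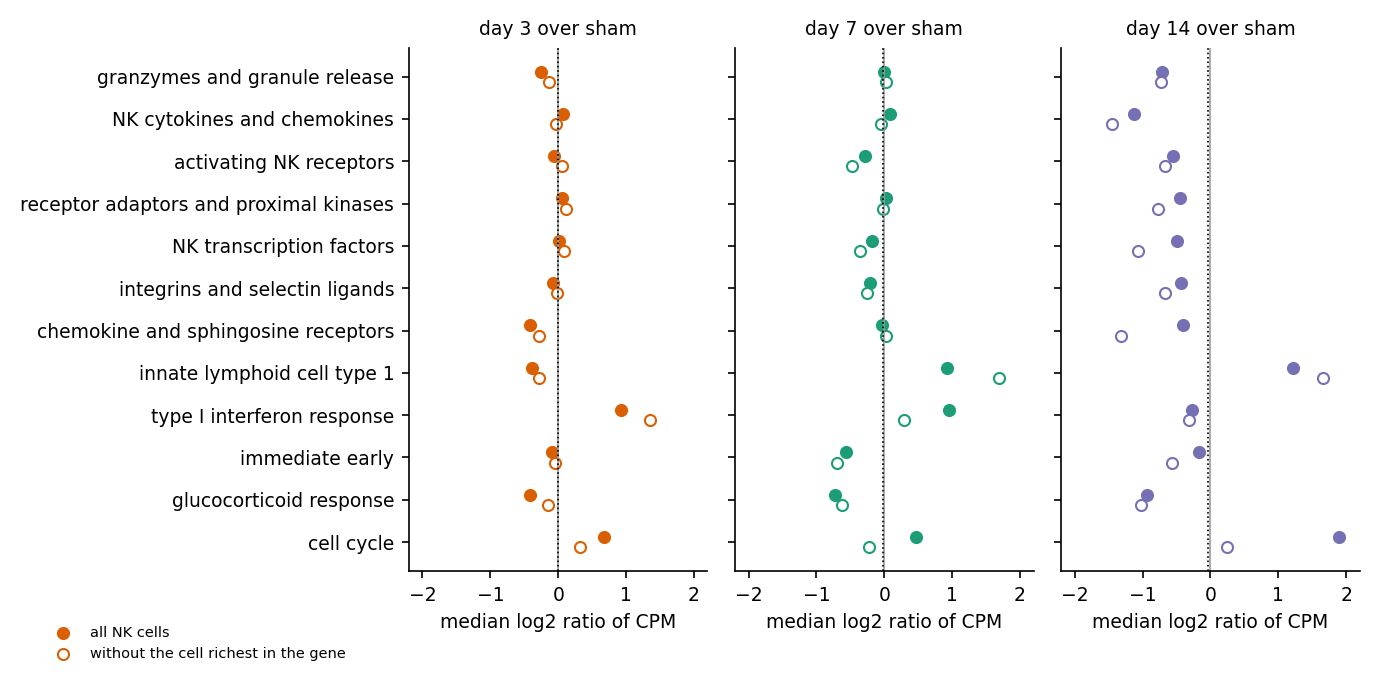
Median log2 ratio of CPM to sham over the measured genes of 12 lists at days 3, 7 and 14, in all NK cells (filled) and without the cell richest in each gene (open); the dotted line is the median of all measured genes. The type 1 innate lymphoid list lies at 0.92 and 1.21 at days 7 and 14, and the cell cycle list moves from 1.89 (filled) to 0.24 (open) at day 14.

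The members were not uniform, and the counted mix differed between pools, although the interval of each day overlapped that of sham. After their values were seen, they were divided by the UMIs of 6 type 1 innate lymphoid markers (Cxcr6, Itga1, Tnfsf10, Tmem176a, Rora and Il7r) into 26 marker-rich cells with at least 3 UMIs and 60 marker-poor cells. The marker count was a range: 35 cells had no such UMI, 25 had 1 or 2, 10 of them had 2, and 2 cells had exactly 3. Marker-rich cells were 4 of 24 in sham (16.7%, 4.74 to 37.4%), 6 of 35 at day 3 (17.1%, 6.56 to 33.6%), 10 of 17 at day 7 (58.8%, 32.9 to 81.6%) and 6 of 10 at day 14 (60.0%, 26.2 to 87.8%). The marker-rich cells of day 7 included all 4 cells at the lowest gate sum of 6 UMIs. Those of day 14 included the cell of 37870 UMIs that held most of the Mpo UMIs. As a share of all singlets they were 1.17% in sham, 1.09% at day 3, 4.63% at day 7 and 3.39% at day 14. Marker-poor cells were 5.87% of singlets in sham, 5.26% at day 3, 3.24% at day 7 and 2.26% at day 14. Marker-rich cells were deeper, with a median of 9020.5 UMIs against 6097.5 UMIs in marker-poor cells. Each cell was also thinned to 2000 UMIs. A UMI of any of the 6 markers was then seen in 37.5% (9 of 24, 18.8 to 59.4%) of the sham NK cells and in 22.9% (8 of 35, 10.4 to 40.1%) at day 3. It was seen in 68.8% (11 of 16, 41.3 to 89.0%) at day 7 and in 50.0% (5 of 10, 18.7 to 81.3%) at day 14.

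Of 4714 genes measured in both sets, 6.07% were higher and 6.39% lower in marker-rich cells by the same rule of 1.5-fold. Of 22 measured NK transcription factor genes 8 were lower and none higher, and of 10 late NK maturation genes 6 were lower and none higher. The 17 measured granule genes were split, with Gzmb, Gzmk, Nkg7 and Serpinb6b lower and Gzmc, Srgn, Ctsw and Lamp1 higher. Without the richest cell on each side the lower genes still passed the rule. Of the higher genes only Ctsw did, at 1.51 (1.25 to 1.83). Srgn was at 1.33 and Lamp1 at 1.73 (0.997 to 3.00), and Gzmc had too few UMIs to be measured. Of 18 type I interferon response genes 8 were higher and 1 lower. Without the richest cell on each side Ifi27l2a, Bst2, Rtp4 and Ly6e were still higher, while Ifit3, Isg20, Ifi44 and Ifitm3 had too few UMIs to be measured. The lower gene, Ddx58, was then at 0.552 with an interval including 1 (0.215 to 1.26). Gzma had 365 CPM in marker-rich cells against 5759 CPM in marker-poor cells, with medians of 0 and 26.5 UMIs a cell, and Ccl5 had 750 CPM against 7619 CPM (ratio 0.0985, 0.0855 to 0.113). In every pool Ccl5 was lower in the marker-rich cells, with 2507 against 9489 CPM in sham, 574 against 6737 CPM at day 3, 263 against 11029 CPM at day 7 and 599 against 2977 CPM at day 14. Despite their greater depth, 19 of the 26 marker-rich cells had no Eomes UMI, against 10 of the 60 marker-poor cells, and 19 had no Gzma UMI against 8. Eomes and Gzma are gate genes, so their values here are given as a description. Klf2 had 96.4 CPM in marker-rich cells against 740 CPM in marker-poor cells (0.130, 0.0852 to 0.192) and Zeb2 31.0 CPM against 208 CPM (0.149, 0.0661 to 0.296). Itga2 (CD49b, the mouse NK integrin also called DX5) had 20.7 CPM in marker-rich cells against 158 CPM in marker-poor cells (0.131, 0.0464 to 0.299). Cma1 had no UMI in the marker-rich cells and 59 UMIs in 25 marker-poor cells.

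Other genes were higher in the marker-rich cells. Xcl1 had 3563 CPM in marker-rich cells against 772 CPM in marker-poor cells (4.61, 4.08 to 5.23), with medians of 16 and 0 UMIs a cell, and was seen in 24 of 26 against 26 of 60 cells. The day 7 cell of 565 UMIs held 54.6% of the marker-rich Xcl1 UMIs, and without the richest cell on each side the ratio was 2.36 (2.04 to 2.73). At day 14 its order was the other way, with 1159 CPM in marker-rich and 1372 CPM in marker-poor cells. The adhesion receptor Cd226 (DNAM-1) had 217 CPM in marker-rich cells against 58.7 CPM in marker-poor cells (3.69, 2.31 to 6.08), the chemokine receptor Cxcr3 158 CPM against 40.6 CPM (3.90, 2.22 to 7.14) and Inpp4b 234 CPM against 29.3 CPM (7.98, 4.37 to 15.7). Ifi27l2a was seen in 8 marker-rich and 2 marker-poor cells, with 73 UMIs in 3 marker-rich day 7 cells at the lowest gate sum. Some genes that NK cells share with type 1 innate lymphoid cells differed little, with Klrd1 at 1071 CPM in marker-rich cells against 1203 CPM in marker-poor cells (0.890, 0.771 to 1.03), Fcer1g at 1.09 (0.943 to 1.26), Tbx21 (T-bet) at 1.09 (0.649 to 1.83) and Runx3 at 0.951 (0.692 to 1.30). Others were lower in the marker-rich cells, with Tyrobp at 0.370 (0.319 to 0.427), Nkg7 at 0.562 (0.502 to 0.630) and the gate gene Ncr1 at 0.754 (0.651 to 0.872). These genes were chosen after their values were seen. The 26 cells are called here by their genes and given no cell type name.

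**Figure D5:**
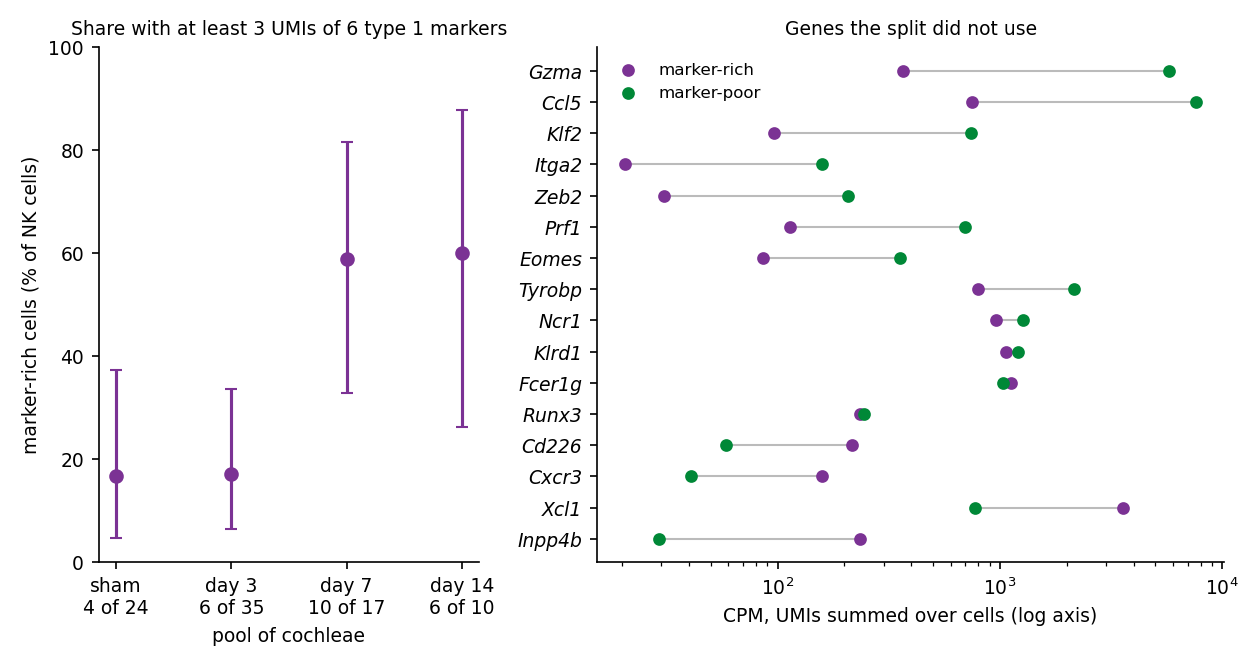
Left, marker-rich cells (at least 3 UMIs of 6 type 1 innate lymphoid markers) as a percentage of the NK cells of each pool, with exact 95% binomial intervals. Right, CPM on a log axis of 16 genes that the division did not use, in marker-rich (purple) and marker-poor (green) cells. Among them Gzma, Prf1, Eomes and Ncr1 are gate genes. Gzma and Ccl5 lie furthest to the left in the marker-rich cells relative to the marker-poor ones, and Klrd1, Fcer1g and Runx3 nearly coincide.

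Several contrasts with sham took other values when the marker-poor cells alone were compared. At day 7, with 7 marker-poor cells against 20 in sham, Ccl5 was at a ratio of 1.16 (1.04 to 1.30), Gzma at 0.922 (0.802 to 1.06), Gzmb at 0.956 (0.421 to 1.98) and Xcl1 at 0.602 (0.273 to 1.19). Jun was still lower there at 0.148 (0.0297 to 0.451), as was Fos at 0.445 (0.205 to 0.866). Sgk1 at 0.264 and Cxcr4 at 0.473 were lower too, with intervals excluding 1. Klf2 no longer passed the rule in these day 7 cells, at 0.666 (0.415 to 1.03). Ccr2 at 0.474 and Itga2 at 0.625 also had intervals that included 1. At day 14, with 4 marker-poor cells, Gzma was at 0.389 (0.309 to 0.485) and Ccl5 at 0.314 (0.250 to 0.389), whereas Tyrobp was at 1.01 (0.779 to 1.30). Xcl1 was higher in those 4 cells at 3.14 (2.04 to 4.80), as was the gate gene Eomes at 2.12 (1.17 to 3.72). At day 3, with 29 marker-poor cells, Gzmb was at 2.95 (2.04 to 4.37) and Xcl1 at 2.15 (1.60 to 2.95).

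The start regions of 4 genes are shown because their levels parted in opposite directions, Gzma and Prf1 lower and Xcl1 higher in marker-rich cells over the summed pools, with Cxcr6 as one of the 6 markers that made the division. Each is the 250 bases before the annotated start, read 5′ to 3′ on the gene's strand (RefSeq, GRCm38.p6), in lower case with matches to 4 searched motifs in capitals.
Gzma promoter, chr13:113100982-113101231, minus strand: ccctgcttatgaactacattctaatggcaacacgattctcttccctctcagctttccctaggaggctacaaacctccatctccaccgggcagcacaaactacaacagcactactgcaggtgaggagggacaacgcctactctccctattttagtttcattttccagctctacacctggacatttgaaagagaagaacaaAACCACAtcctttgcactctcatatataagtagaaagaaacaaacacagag
Prf1 promoter, chr10:61297586-61297835, plus strand: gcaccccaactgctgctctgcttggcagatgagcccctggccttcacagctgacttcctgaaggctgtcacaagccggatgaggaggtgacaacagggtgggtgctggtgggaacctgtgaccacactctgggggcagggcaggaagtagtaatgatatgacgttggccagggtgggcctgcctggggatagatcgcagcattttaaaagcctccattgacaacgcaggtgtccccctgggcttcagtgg
Xcl1 promoter, chr1:164935523-164935772, minus strand: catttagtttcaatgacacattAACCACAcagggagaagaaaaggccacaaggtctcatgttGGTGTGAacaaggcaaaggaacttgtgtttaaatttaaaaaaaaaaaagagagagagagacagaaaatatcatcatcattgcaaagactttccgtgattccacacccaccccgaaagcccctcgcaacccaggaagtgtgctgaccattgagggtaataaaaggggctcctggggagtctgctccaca
Cxcr6 promoter, chr9:123806227-123806476, plus strand: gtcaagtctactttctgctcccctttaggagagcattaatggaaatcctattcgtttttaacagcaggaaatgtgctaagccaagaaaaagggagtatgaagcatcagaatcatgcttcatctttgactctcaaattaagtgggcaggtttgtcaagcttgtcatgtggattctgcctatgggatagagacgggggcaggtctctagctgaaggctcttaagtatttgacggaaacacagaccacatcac
The motifs were GGTGTGA for T-box factors such as Eomes and T-bet, TGTGGTT for Runx factors, TGANTCA for AP-1 and TTCNNNGAA for STAT factors, each searched on both strands. Gzma held a Runx match 51 to 45 bases before its start, and Xcl1 a T-box match 188 to 182 and a Runx match 228 to 222 bases before its start, none of which overlap. No match fell in the Prf1 or Cxcr6 windows. Among 32851 promoters of the same length, 3.33% held the T-box letters, 4.40% the Runx letters, 6.75% the AP-1 letters and 7.02% the STAT letters. In the gene annotation of the same build (GENCODE vM21), Gzma lies at chr13:113093825-113100981 on the minus strand, Prf1 at chr10:61297833-61304680 on the plus strand, Xcl1 at chr1:164931644-164935527 on the minus strand and Cxcr6 at chr9:123806475-123811760 on the plus strand.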

How the data were processed

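The tissue of 6 mice per condition was digested, per the labels, and its cells were stained with CD45 and hashtag antibodies, sorted as live CD45+ cells and run on a droplet platform with 3' capture. The submitters' processing notes name Cell Ranger 3.1.0 and the build mm10. The deposited UMI counts (raw whole-number counts per gene and barcode) covered 31053 genes, and the gene counts were identical in both deposited matrices, which share 1556 barcodes.

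Pools were assigned from the deposited hashtag counts, requiring at least 10 UMIs of the top hashtag and at least 80% of all hashtag UMIs, which leaves droplets with 2 cells of 1 pool in place; no doublet caller was run. UMIs were summed per pool and scaled to CPM. In such sums fewer cells of a type and less RNA per cell cannot be told apart. Ratios carry exact conditional Poisson 95% intervals, with an empty side set to 3 UMIs, and shares Clopper-Pearson intervals. UMIs come from single cells of pooled mice, so these intervals and floors cover counting error only. The floor of 3 UMIs equals 18.4 CPM in sham, 9.76 CPM at day 3, 23.2 CPM at day 7 and 22.5 CPM at day 14. Thinning drew 2000 UMIs from each cell and left out 1 NK cell, 3 B cells and 17 neutrophils below that depth.

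The members and the gene lists were chosen with earlier results of these data known. Named genes were the 5 gate genes, abundant members of the NK lists, for each day the 10 highest and 10 lowest called genes by the interval bound nearest to 1 and 2 to 4 list members farthest from 1, and the 15 highest and 10 lowest against T cells. That choice skipped genes of mitochondria, ribosomes, antigen receptor variable regions and the sex chromosomes' Xist and Y genes, and unnamed gene models. Genes outside this choice, and the division by type 1 innate lymphoid markers, were taken up after their values were seen. Promoters came from a RefSeq table (GRCm38.p6) and coordinates from GENCODE vM21. Computation used Python 3.11.15, numpy 2.4.6, scipy 1.17.1 and pandas 2.3.3. The ratio rule alone was tested on simulated data, which were Poisson counts of whole pools without differences between single cells. Alternatives changed the gate, the mitochondrial and hashtag limits, the scaling, the UMI minimum, the depth and the inclusion of large or gene-rich cells. Some results on single genes are not reported here.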

Additional observations from a re-analysis of the deposited data

Results flagged for a closer look

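A signal lay outside the cells compared: 1 barcode passed the NK gate but carried no single hashtag and so belongs to no pool. It held 25805 UMIs and a sum of 11 UMIs of the 5 gate genes, with 926 UMIs of its top hashtag and 293 of the next.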

How the results depend on the processing

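The ratio of the NK share to sham ranged over all alternatives from 0.780 to 1.30 at day 3, from 0.892 to 1.34 at day 7 and from 0.613 to 1.04 at day 14. Among shares and counts, 108 values under the settings listed first stayed within the limits set and 13 moved; among single genes 981 stayed, 49 moved and 3 reversed. Under a further pair of settings, added after seeing the data, 7 stayed and 5 moved, and among single genes 101 stayed, 21 moved and 7 reversed. With at most 5% mitochondrial UMIs, day 14 had 103 genes higher and 122 lower. Without NK cells above 2 times the median depth, 71 were higher at day 3, and 59 higher and 76 lower at day 14. With a minimum of 10 UMIs a gene, 149 were lower at day 3 and 165 higher at day 7; with 1 UMI, 177 were lower at day 3, 179 higher at day 7 and 246 higher at day 14. Without the cell richest in each gene, 57 were lower at day 3, 50 higher at day 7 and 69 higher at day 14. Of the added pair, without each pool's largest cell 133 were lower at day 14. In marker-poor cells alone 40 were higher and 40 lower at day 7, and 46 higher and 41 lower at day 14. Some ratios reversed: Cxcr6 at day 7 to 0.797 with a marker sum of at least 8, Tubb5 at day 14 to 0.644 without cells above 2 times the median depth, and Ccl4 at day 7 to 0.436 without the richest cell. In marker-poor cells alone, Tubb5 at day 14 was at 0.795, Ccl4 at day 7 at 0.378, Xcl1 at 0.602, Gzmb at 0.956, Ccl5 at 1.16 and Serpinb9 at 1.04, and Tyrobp at day 14 at 1.01; the cause was not tested. No paired analysis was possible because each condition was a single pool. The day 14 pool rests on 10 cells, so its levels are the least certain.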
